A study of Oryza sativa with 6 samples.

Results

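The PEX11 genes of rice were read in shoot tips of *Osrdr1* seedlings and of their sibling WT. Peroxisomes are small organelles that oxidize metabolites and remove the hydrogen peroxide formed in doing so, and in green tissue they carry a part of photorespiration. PEX11 proteins sit in the peroxisomal membrane and elongate it before the organelle is divided by a fission machinery that includes dynamin-related proteins. In *Arabidopsis*, light increases the number of peroxisomes in seedlings and raises a PEX11 transcript.

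*Osrdr1* is homozygous for an insertion of the retrotransposon *Tos17* in the second exon of *OsRDR1*, which encodes an RNA-dependent RNA polymerase, and represents 1 insertion line. The WT plants are siblings that segregated from the same heterozygous line of the variety Hitomebore after successive selfing. Germination took 2 dark days at 28 °C in water, and about 48 h in a greenhouse (26 °C, 16 h light and 8 h dark) followed. Both genotypes thus had light during those 48 h. The hour of harvest, and so the light at that time, was not known here. Each genotype was measured in 3 biological replicates on 1 Affymetrix Rice Genome Array each, and the values are log2 signals for 57258 probe sets after the authors' RMA normalization. The labels do not give the number of seedlings in a replicate, so the p-values measure the spread between these 6 samples.

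The members were all probe sets whose sole gene is listed as PEX11 with a number. A table of rice genes lists 5 such genes, and 3 of them have a probe set, 1 each, among the 57258 tested, of which 22436 name a single gene (17905 genes in all). These are PEX11-1 (LOC4331408) on chromosome 3, PEX11-4 (LOC4336511) on chromosome 4 and PEX11-5 (LOC4339973) on chromosome 6. PEX11-2 (LOC9267541) and PEX11-3 (LOC4332579), which lie next to each other on chromosome 3, were matched to no probe set and were not analysed here. The names OsPEX11-2 and OsPEX11-5 are each listed for both LOC9267541 and LOC4339973, so the gene called PEX11-5 here can appear as OsPEX11-2 elsewhere. The probe set of PEX11-5 is of the type that the array's naming marks as shared by alternative transcripts of a gene.

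Transcripts of PEX11-4 and PEX11-1 were higher in *Osrdr1*, and that of PEX11-5 did not pass the test. PEX11-4 was 2.09 times as abundant in *Osrdr1* as in WT, and PEX11-1 was 1.52 times as abundant. All 3 probe sets lay above the median of their array on all 6 arrays. In whole shoot tips, a higher level per cell and a larger share of the cells that carry the transcript cannot be told apart.

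PEX11-4 had log2 values of 8.84, 8.82 and 8.83 in *Osrdr1* replicates 1, 2 and 3, against 7.73, 7.75 and 7.82 in WT replicates 1, 2 and 3. The *Osrdr1* arrays were nearly identical, and the lowest of them stood 0.99 above the highest WT array. The means were 8.83 ± 0.01 in *Osrdr1* and 7.77 ± 0.05 in WT (SD, n = 3 each). The log2 fold change was 1.06 (standard error 0.07, 95% confidence interval 0.90 to 1.23, adjusted p = 0.00758 from limma with Benjamini-Hochberg adjustment over all probe sets tested). By unadjusted p, PEX11-4 ranked 4 among the 57258 probe sets, and 0.175% of them had a log2 fold change of at least this size.

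PEX11-1 had log2 values of 11.27, 11.37 and 11.35 in *Osrdr1*, against 10.71, 10.73 and 10.76 in WT. The groups did not overlap, with a gap of 0.51 between the lowest *Osrdr1* and the highest WT array. The means were 11.33 ± 0.05 in *Osrdr1* and 10.73 ± 0.03 in WT (SD, n = 3 each). The log2 fold change was 0.60 (standard error 0.07, 95% confidence interval 0.43 to 0.77, adjusted p = 0.0152 from limma). PEX11-1 ranked 184 by unadjusted p, and 1.6% of all probe sets had a log2 fold change of at least 0.60.

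PEX11-5 had log2 values of 10.82, 10.92 and 10.96 in *Osrdr1*, against 11.10, 11.09 and 10.83 in WT. WT replicate 3 lay among the *Osrdr1* arrays, while WT replicates 1 and 2 lay above all of them. The means were 10.90 ± 0.07 in *Osrdr1* and 11.01 ± 0.15 in WT (SD, n = 3 each), and the log2 fold change was -0.11, with a standard error of 0.10 (limma adjusted p = 0.701). The 95% confidence interval ran from -0.34 to 0.12, which leaves out increases as large as those of PEX11-4 and PEX11-1 but not a small change in either direction. Without WT replicate 3 the groups no longer overlapped, and the log2 fold change was -0.20 (95% confidence interval -0.38 to -0.01). In that fit limma gave an unadjusted p of 0.0388 and an adjusted p of 0.261, so PEX11-5 was not called. The array left out there is the one that made the groups overlap, so this separation follows from the choice. With any other array left out, the log2 fold change ran from -0.14 to -0.06, and limma gave unadjusted p of 0.263 to 0.582.

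**Figure D1:**
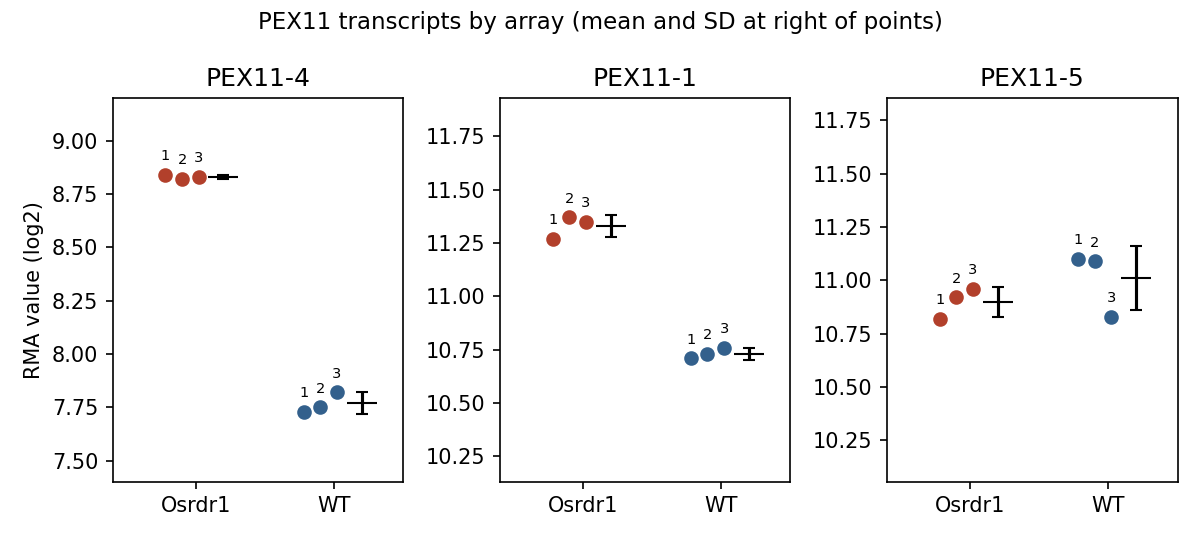
RMA values on the log2 scale of PEX11-4, PEX11-1 and PEX11-5 on each array, with *Osrdr1* at the left and WT at the right of each panel, replicate numbers above the points, and the mean with its SD (n = 3) as a black bar. The vertical axes have the same length but different levels. The *Osrdr1* points stand 0.99 above the WT points for PEX11-4 and 0.51 above them for PEX11-1 at the nearest, and they overlap for PEX11-5.

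The 2 higher members of 3 can be read against the whole array, on which 1.57% of the probe sets were called higher and 0.506% lower at an adjusted p under 0.05. Among the 28629 brighter probe sets, where all 3 members fall, 3.08% were called higher. None of the members was called lower by limma. At an unadjusted p under 0.05, 2 of the 3 members were higher and 0 were lower. In either direction, 14.3% of all probe sets and 27.7% of all 17905 genes reached it. For 2 of the 3 members all *Osrdr1* arrays lay above all WT arrays, as did 10.0% of all probe sets. The median log2 fold change of the 3 members was 0.60, and that of all probe sets was -0.01. The members were chosen with earlier results of these data known, so these shares give a scale and are not a test.

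**Figure D2:**
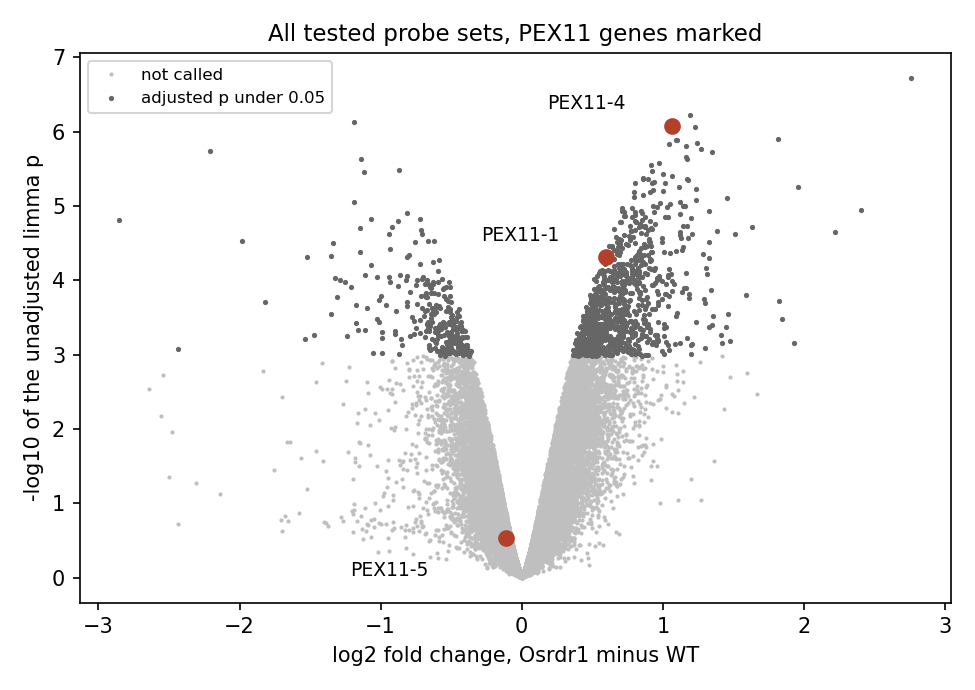
Log2 fold change (*Osrdr1* minus WT) of each of the 57258 probe sets on the horizontal axis and -log10 of its unadjusted limma p on the vertical axis, with called probe sets in dark grey, others in light grey and the PEX11 genes in red. PEX11-4 (1.06) lies near the upper edge, PEX11-1 (0.60) lies among the called probe sets and PEX11-5 (-0.11) lies near the bottom.

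The size of the change differed among the members by more than the spread between arrays. Within each array, the value of one member was subtracted from that of another, and the differences were compared between genotypes. The log2 fold change of PEX11-4 exceeded that of PEX11-1 by 0.46, with SDs of this difference of 0.06 among *Osrdr1* and 0.02 among WT arrays (n = 3 each). It exceeded that of PEX11-5 by 1.17, and PEX11-1 exceeded PEX11-5 by 0.71. For all 3 pairs the *Osrdr1* differences lay above all WT differences. The exact permutation test gave p = 0.1 for each pair (two-sided, n = 3 each, adjusted p = 0.1 over the 3 pairs), which is the smallest p that 3 arrays against 3 allow, so no pair could pass a threshold of 0.05.

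PEX11-4 and PEX11-1 were steady within each genotype. The SD of PEX11-4 was 0.014 among *Osrdr1* arrays, where 3.47% of all probe sets had a smaller one, and 0.049 among WT arrays, where 14.4% did. For PEX11-1 the SD was 0.052 in *Osrdr1* and 0.026 in WT, for PEX11-5 it was 0.074 in *Osrdr1* and 0.152 in WT, while the median SD over all probe sets was 0.10 in *Osrdr1* and 0.13 in WT. Limma does not take such small SDs at face value but draws them toward the spread shared by all probe sets, which gave PEX11-4 and PEX11-1 the same standard error of 0.07.

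The adjusted p of both called members depended on which array was left out, while the fold changes hardly moved. With each array left out in turn, the log2 fold change of PEX11-4 stayed between 1.04 and 1.09 and that of PEX11-1 between 0.58 and 0.63. PEX11-4 passed the test in 3 of these 6 fits and was lost without *Osrdr1* replicate 1 (adjusted p = 0.0633 from limma), without *Osrdr1* replicate 3 (adjusted p = 0.0829) and without WT replicate 1 (adjusted p = 0.0550). In these 3 fits, 0, 0 and 1 of all probe sets on the array passed. PEX11-4 still ranked 8 to 12 by unadjusted p in the 6 fits.
PEX11-1 passed without WT replicate 3 (adjusted p = 0.0247 from limma) and missed the threshold in the other 5 fits, with adjusted p of 0.0608 without WT replicate 2, 0.0635 without *Osrdr1* replicate 2, 0.0712 without *Osrdr1* replicate 1, 0.0754 without WT replicate 1 and 0.0994 without *Osrdr1* replicate 3. Its rank by unadjusted p ran from 206 to 358. WT replicates 2 and 3 departed more than the other arrays from their group, with 296 and 477 probe sets over 2-fold from the mean of the other WT arrays, against 86 in WT replicate 1 and 23 to 29 in the *Osrdr1* arrays. Leaving both out leaves 1 WT array that is assumed to vary like the others. The log2 fold changes were then 1.10 for PEX11-4 and 0.62 for PEX11-1, and neither gene was called.

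**Figure D3:**
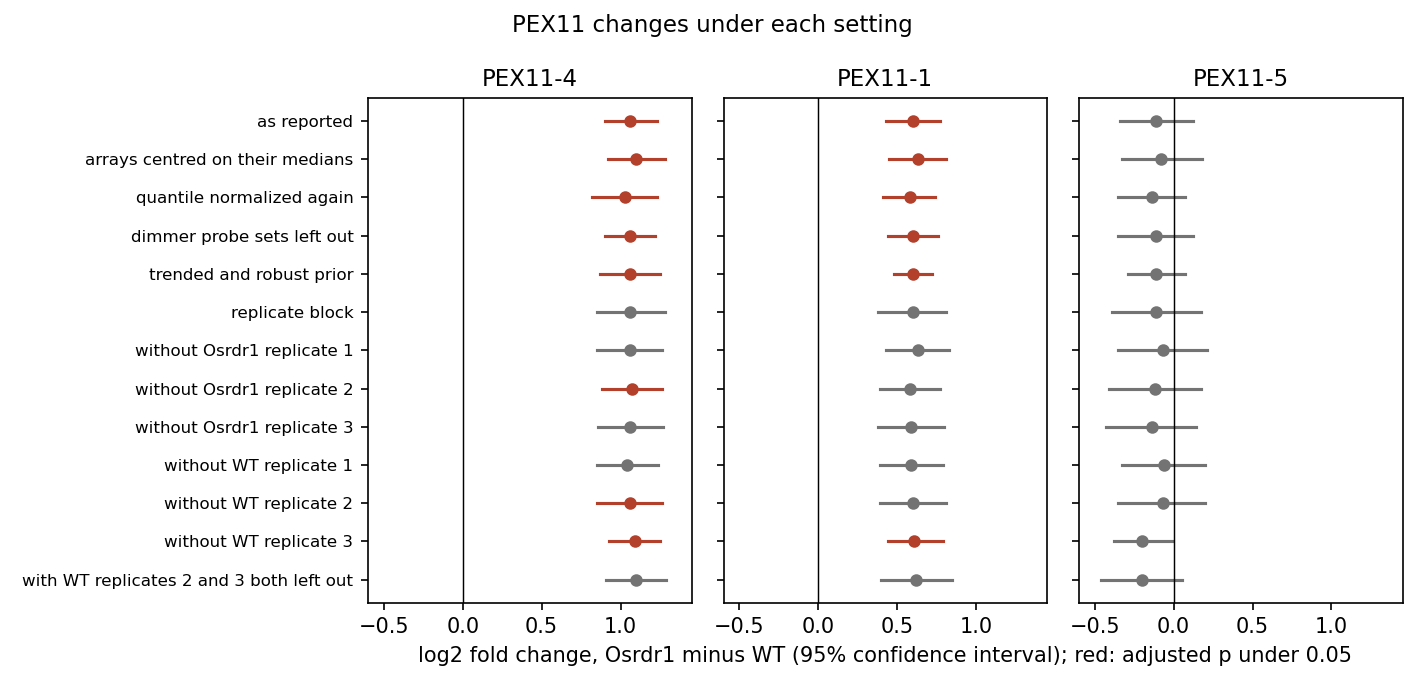
Log2 fold change (*Osrdr1* minus WT) of each PEX11 gene on the horizontal axis with its 95% confidence interval, as reported (top row) and under other scalings, filters, variance models and sets of arrays, red where the adjusted p was under 0.05. The points of PEX11-4 stay between 1.03 and 1.10 and those of PEX11-1 between 0.58 and 0.63, with all intervals above 0.

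Other genes of the peroxisome were read from a list of named genes, and 3 of its 11 measured members were higher in *Osrdr1*. None was called lower (1, GLO3, was lower at an unadjusted p under 0.05), and 8 did not pass the test. Of all 17905 genes read on their brightest probe set, 3.44% were called higher and 1.13% lower. The median log2 fold change of the 11 genes was 0.10, against 0.00 over all genes. No dynamin-related or FIS1 gene of division and no peroxin other than PEX11 could be matched by name to a probe set, so the machinery that acts with PEX11 was not analysed here.

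The higher genes belong to photorespiration and peroxide removal, in which 3 of 7 listed genes were called. CAT-A, a catalase, had log2 values of 13.79, 13.81 and 13.85 in *Osrdr1*, against 13.10, 13.03 and 13.34 in WT (log2 fold change 0.66, adjusted p = 0.0259 from limma). The glycolate oxidases GLO1 and GLO5, which form hydrogen peroxide from glycolate, had log2 fold changes of 0.61 (adjusted p = 0.0235) and 0.60 (adjusted p = 0.0342), close in size to that of PEX11-1. Neither CAT-B, another catalase (-0.14), nor the glycolate oxidases GLO3 (-0.29) and GLO4 (-0.06) passed the test. For the ascorbate peroxidase APX4 the log2 fold change was 0.25 (limma adjusted p = 0.168). All *Osrdr1* arrays of APX4 lay above all WT arrays, as they did for 10.0% of all probe sets. For CAT-B and GLO3 all *Osrdr1* arrays lay below all WT arrays, with highest *Osrdr1* values of 11.47 and 10.77 and lowest WT values of 11.48 and 10.80. The share of all probe sets with all *Osrdr1* arrays below was not counted.

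Among the 3 measured genes of fatty acid breakdown and the glyoxylate cycle, which turn seed oil into sugar in germinating seedlings, none was called by limma, and 0 were at an unadjusted p under 0.05, where 27.7% of all 17905 genes were. MFP, a multifunctional enzyme of beta-oxidation, had a log2 fold change of 0.10, isocitrate lyase (ICL) had -0.57 and malate synthase (MS) had -0.81. The intervals of ICL (-1.32 to 0.18) and MS (-1.86 to 0.24) were wide, and ICL, with its highest *Osrdr1* value (4.25) just below its lowest WT value (4.28), lay above the array median on 1 of 6 arrays, so its value cannot be told from background on the rest. OPR7, a reductase of jasmonate synthesis in the peroxisome, had 0.18 (adjusted p = 0.464 from limma).

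**Figure D4:**
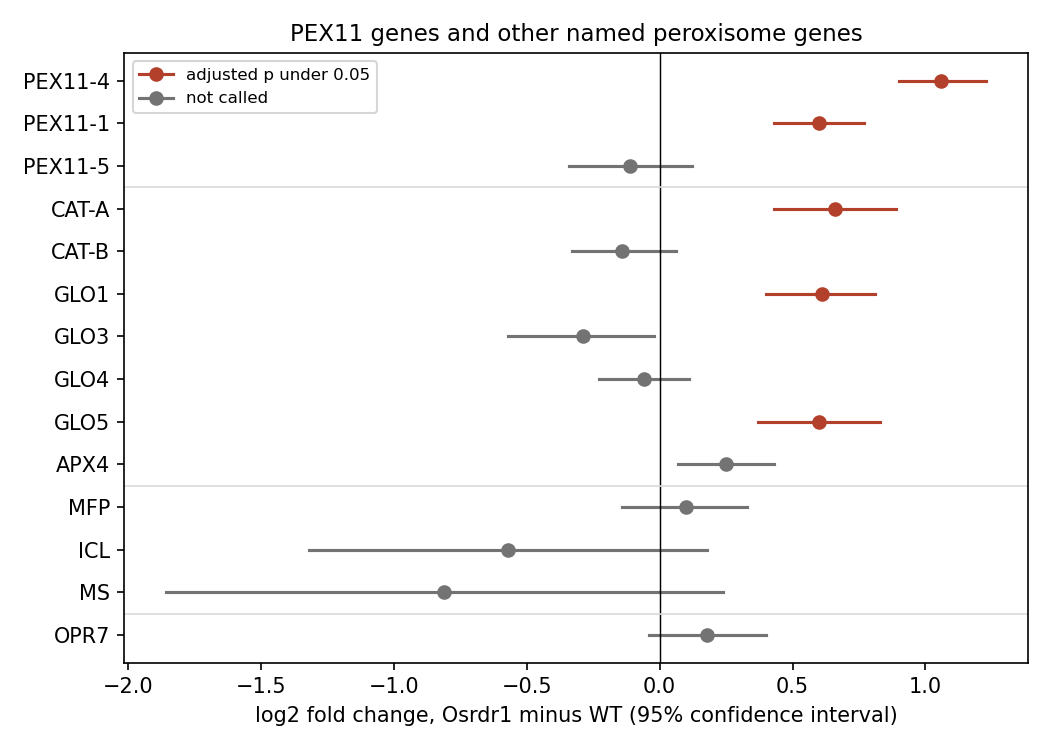
Log2 fold change (*Osrdr1* minus WT) on the horizontal axis with its 95% confidence interval for the 3 PEX11 genes (top), 7 genes of photorespiration and peroxide removal, 3 genes of fatty acid breakdown and the glyoxylate cycle, and OPR7 (bottom), red where the adjusted p was under 0.05. PEX11-4 has the highest value of the 14 genes, and PEX11-1 lies beside CAT-A, GLO1 and GLO5.

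The summed signals of green leaf markers and of shoot meristem markers also differed between the genotypes. All 9 measured genes of the green leaf list, such as the small subunit of Rubisco (OsrbcS, log2 fold change 0.52) and the protochlorophyllide reductase PORA (0.72), had positive values, and 4 were called higher by limma, against 3.44% of all genes. Their summed signal was 45351 to 46256 in *Osrdr1* and 32030 to 36678 in WT on the linear scale. All 5 measured knotted-type homeobox genes of the meristem had negative values and 1 was called lower (1.13% of all genes were), with a summed signal of 123 to 236 in *Osrdr1* and 311 to 785 in WT, and 2 of them lay below the array median on every array. The defining meristem gene OSH1 had log2 values of 6.31, 4.62 and 3.71 in *Osrdr1*, against 7.63, 8.28 and 6.15 in WT (adjusted p = 0.162 from limma). Of 5 seed storage glutelin genes, 4 lay below the array median on every array and had log2 fold changes from -0.12 to -0.01 that did not pass the test. The fifth, GluA2, was called higher, with mean log2 values of 7.14 ± 0.14 in *Osrdr1* against 6.45 ± 0.21 in WT (SD, n = 3 each, log2 fold change 0.70, adjusted p = 0.0425 from limma). The part of tissue composition in the PEX11 values was not tested.

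The genes with the most similar pattern over the 6 arrays were searched among 2448 other named genes by Pearson's r of the log2 values. The 6 arrays form 2 separate groups, so a high r mostly says that a gene differed between genotypes by much more than within them, and 218 of these genes had an r above 0.9 with PEX11-4 and 226 with PEX11-1. For PEX11-4 the 4 most similar genes were PSY1, a phytoene synthase of carotenoid synthesis (r = 0.999), the silicon transporter gene Lsi1 (0.999), OsNtrC, a plastid thioredoxin reductase (0.997), and UPD1, a uroporphyrinogen decarboxylase of tetrapyrrole synthesis (0.997). Over the deviations from the genotype means, their r was 0.65, 0.46, 0.07 and 0.62. The genes were picked on the same 6 arrays, so r over the deviations is not separate support. PSY1, for example, had 10.05, 10.05 and 10.03 in *Osrdr1*, against 9.31, 9.34 and 9.34 in WT (log2 fold change 0.71, adjusted p = 0.0109 from limma).
For PEX11-1 they were Lsi1 (r = 0.997), the chloroplast NADH dehydrogenase-like subunit NDH-M (0.997), CCS (0.996) and CLA1, a synthase at the entry of the plastid isoprenoid pathway (0.995), with r of 0.83, 0.75, 0.94 and 0.80 over the deviations. These genes too were picked on the same arrays. *Osrdr1* replicate 1 was the lowest *Osrdr1* array for PEX11-1 and for each of them, so r over the deviations rests in part on 1 array. Lsi1 was on both lists, with log2 values of 9.44, 9.47 and 9.47 in *Osrdr1*, against 8.63, 8.67 and 8.67 in WT (log2 fold change 0.80, adjusted p = 0.00853 from limma). UPD1 (0.25, adjusted p = 0.125) and CCS (0.16, adjusted p = 0.358) were not called by limma, since r does not depend on the size of a difference. PEX11-4 and PEX11-1 themselves had an r of 0.99 over the 6 arrays and 0.22 over the deviations. Against PEX11-5, r was -0.54 over the 6 arrays and -0.90 over the deviations for PEX11-4, and -0.50 and -0.05 for PEX11-1. The -0.90 rests largely on WT replicate 3, the highest WT array for PEX11-4 (7.82) and the lowest for PEX11-5 (10.83).

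Genes beside the PEX11 loci were not called. Of the 5 genes on each side in the order of the gene table, 6 had a probe set around PEX11-4, with log2 fold changes from -0.02 to 0.40, and 8 around PEX11-1, from -0.20 to 0.39. Limma called 0 of them, where 4.57% of all genes were called in either direction. At an unadjusted p under 0.05, which 27.7% of all genes reached, there were 0 around PEX11-4 and 1 around PEX11-1. Around PEX11-5, 8 neighbours were measured, from -0.43 to 0.39, limma called 0, and 2 had an unadjusted p under 0.05. The pair PEX11-2 and PEX11-3 had 6 measured neighbours around PEX11-3, from -0.11 to 0.15, of which 0 were called by limma and 0 were at an unadjusted p under 0.05.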

How the data were processed

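Total RNA (6 µg) of shoot tips was labelled with biotin and hybridized to 1 array for each of 3 *Osrdr1* and 3 WT replicates. The authors deposited log2 values made with RMA in Affymetrix Expression Console, per the labels, which corrects background, equalizes array quantiles and summarizes probes. The RMA version was not given in any source used here, and detection calls were not used.

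The values were fitted as deposited with limma 3.58.1 in R 4.3.3 (genotype as the only term) over 57258 probe sets, after 123 control probe sets were left out, with 4 residual and 3.32 prior degrees of freedom. Calls were made at a Benjamini-Hochberg adjusted p under 0.05, and intervals are 95%. Python 3.11.15 with scipy 1.17.1 gave exact tests. The fit was tested on simulated data in which 200 probe sets were changed by a log2 value of 1 or 2 in either direction. It recovered 71% of the changes of 1 and 96% of those of 2, and 2.9% of its calls were false. The simulated noise was independent between values, without departures shared by a whole array. Changes as small as that of PEX11-1 were not simulated.

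Names came from the array's annotation and a rice gene table. Of the probe sets, 22436 have 1 gene, 95 several and 34727 none. The brightest probe set stood for each of 17905 genes. The members and lists were chosen with earlier results of these data known. The co-chaperone SGT1, which shares its symbol with a listed enzyme, was left out. Every PEX11 gene, the called genes of the peroxisome list and the 4 genes most similar to PEX11-4 and to PEX11-1 are named by rule, and the other genes as members of lists. Sequences were not used here. With 3 arrays for each genotype, precision is limited by their number.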

Additional observations from a re-analysis of the deposited data

How the results depend on the processing

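The directions of all 3 PEX11 fold changes were the same in all alternatives run. The calls of PEX11-4 and PEX11-1 also held with arrays centred on their medians and with a second quantile normalization. They held too without the dimmer probe sets and with a trended and robust prior. A minimum log2 fold change of 0.5 could not remove these calls, since it keeps the same fit and both fold changes exceed it. With the replicate block, limma gave log2 fold changes of 1.06 for PEX11-4 (adjusted p = 0.0829) and 0.60 for PEX11-1 (adjusted p = 0.0997). It called 0 PEX11 genes, 0 genes of the peroxisome list and 0 probe sets in all. In this fit 2 PEX11 genes and 4 listed genes were higher at an unadjusted p under 0.05. The share of all genes that reached it in this fit was not counted. In the fit as reported, that share was 27.7% in either direction. The deviations of same-numbered arrays had r of 0.14, -0.15 and -0.27, and those of differently numbered arrays ran from -0.35 to 0.35. So few arrays cannot show whether samples with the same number share a day or batch, which was not tested. With WT replicates 2 and 3 both left out, the log2 fold changes were 1.10 for PEX11-4 and 0.62 for PEX11-1, and neither gene was called. With each array left out in turn, log2 fold changes ran from 1.04 to 1.09 for PEX11-4 and from 0.58 to 0.63 for PEX11-1, limma called 0 to 2 PEX11 genes higher and 0 to 2 listed genes higher. At an unadjusted p under 0.05, 1 listed gene (GLO3) was lower. Each PEX11 gene has 1 probe set, so the choice of the brightest changes nothing for them. Without detection calls, dim values such as those of ICL cannot be told from background.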

Other observations

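The enzymes of the glyoxylate cycle, which share the peroxisome with PEX11, were higher on 1 array than on the other 5. MS had a log2 value of 9.14 in WT replicate 2, against 7.88 and 7.14 in the other WT replicates and 7.49, 7.26 and 6.98 in *Osrdr1*. ICL had 5.58 there, against 4.28 and 4.37 in the other WT replicates and 4.25, 4.12 and 4.15 in *Osrdr1*. Of 4 measured genes of the response to low oxygen, the pyruvate decarboxylase PDC1 had 8.55 on the same array and 3.74 to 4.13 elsewhere. ADH2 had 9.36 there and 6.23 to 7.40 elsewhere. PDC2 differed little, with 12.32 there and 11.87 to 12.25 elsewhere. PDC3 was not higher, with 5.49 there and 5.49 to 5.85 elsewhere. PEX11-4 (7.75), PEX11-1 (10.73) and PEX11-5 (11.09) in WT replicate 2 each lay between the values of the other WT replicates. This array was chosen after its values were seen, and no test was made.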
